A study of Mus musculus with 24 samples.

Results

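Genes that the transcription factor p53 is known to switch on were followed through every library of the study: Cdkn1a, Ccng1, Mdm2, Trp53inp1, Bax, Bbc3, Aen, Phlda3, Sesn1 and Zmat3. They were chosen by symbol, and all 10 were found among the 23479 genes of the deposited table. Myeloid-derived suppressor cells (MDSCs), immature myeloid cells that build up when a tumour grows and dampen T cell responses, were sorted by flow cytometry from spleens and their total RNA was sequenced. All 24 libraries came from mice with an established B16 melanoma, a transplantable mouse tumour. They form 8 groups of 3, set by genotype label, treatment and cell type. The WT-labelled mice are C57BL/6, and the KO-labelled mice are B6.129S2-Il6tm1Kopf/J, which carry an insertion in the interleukin-6 gene in every cell. Lymphodepleted (LD) mice had received cyclophosphamide, which crosslinks DNA, and fludarabine, a nucleoside analogue that blocks DNA synthesis. Untreated (UT) mice had not, and spleens were taken 7 days after treatment. The sorted cells were monocytic (M-MDSC) or polymorphonuclear (PMN-MDSC). No age, sex or sort marker is given in the labels.

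p53 is held at a low level by Mdm2, a ubiquitin ligase that p53 itself induces. After DNA damage, kinases such as Atm and Chek2 free p53, which then raises genes that stop the cell cycle, repair DNA or kill the cell. Cyclophosphamide and fludarabine are both known to set off this response within hours in blood cells and their precursors. Neutrophil-lineage cells are short-lived, and their death is known to depend on the balance of BCL2 family proteins to which Bax and Bbc3 belong.

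p53 binds paired copies of a short repeat. RefSeq windows of GRCm38.p6, from 250 bases before to 50 after each start, were found for 8 of the 10 genes (Trp53inp1 and Zmat3 had none). The p53 repeat, by its consensus, was matched exactly in 7 of the 13 windows of these 8 genes and in 8.36% of all 32851 windows. At least 1 window matched in 6 genes, Cdkn1a, Ccng1, Mdm2, Bax, Aen and Sesn1, and some genes have more than 1 window. Both Aen windows overlap and hold the same match, which is counted in each. The consensus reads the same on both strands. Cdkn1a and Ccng1 also hold a run of 2 adjacent copies with at most 1 mismatch, which 22 of all windows hold (0.0670%). The Cdkn1a copies begin at base −51 from the upstream one of its 2 starts, and the Ccng1 copies at base −195, where the upstream copy carries the mismatch. They are shown because both hold adjacent copies, and below Cdkn1a was called between cell types in all 4 pairs and Ccng1 by the main test in none. The shorter stretches of Mdm2 and Bax, with a single copy each, belong to genes that differ between cell types in opposite directions. Matches are in capitals and each sequence runs 5′ to 3′ on the gene's own strand.
Cdkn1a, chr17:29090729-29090975, plus strand: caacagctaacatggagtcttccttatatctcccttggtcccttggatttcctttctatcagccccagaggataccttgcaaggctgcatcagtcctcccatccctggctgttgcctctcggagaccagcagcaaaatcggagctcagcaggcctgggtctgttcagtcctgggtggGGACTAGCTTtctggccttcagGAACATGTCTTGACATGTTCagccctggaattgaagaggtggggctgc
Ccng1, chr11:40755312-40755536, minus strand: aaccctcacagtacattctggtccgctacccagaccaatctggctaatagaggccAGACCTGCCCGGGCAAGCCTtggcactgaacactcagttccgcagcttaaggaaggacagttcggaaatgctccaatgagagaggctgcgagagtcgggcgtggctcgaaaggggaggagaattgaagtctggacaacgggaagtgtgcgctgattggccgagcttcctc
Mdm2, chr10:117710925-117710954, minus strand: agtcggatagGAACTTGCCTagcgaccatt
Bax, chr7:45467080-45467109, minus strand: agcatatcccAGGCAAGCTTtgaacttgcg
These are matches of letters and say nothing on whether p53 was bound there in these cells. Bbc3 and Phlda3 had no exact match in their windows.

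The M-MDSC libraries held 7237462 to 11193088 reads. The PMN-MDSC libraries were shallower at the low end, with 3249647 to 9999731. The ribosomal RNA gene Rn45s took 6.07% to 19.8% of the reads in M-MDSC and 2.94% to 18.0% in PMN-MDSC libraries. Scaling by total count, used below as an alternative, divides by totals that include these reads. Values are normalized read counts, reads divided by the authors' size factor for the library. Of the markers checked, 6 of 8 M-MDSC genes were called higher in M-MDSCs and all 7 measured PMN-MDSC genes higher in PMN-MDSCs in untreated WT mice. Of all genes tested there, 22.2% were called higher in M-MDSCs and 28.3% lower. The M-MDSC genes summed to 48744 to 64116 normalized counts in these M-MDSC and 27540 to 30596 in these PMN-MDSC libraries. The PMN-MDSC genes summed to 3241 to 3518 and 126124 to 149139. Il6, the gene named in the strain, was higher in the libraries labelled KO (16.2 to 220 normalized counts in 12 libraries) than in those labelled WT (0 to 7.20 in 12). Counts were made per gene, so an interrupted and an intact transcript look the same, and KO and WT below are names of labels. A sum of RNA over sorted cells cannot tell fewer cells of a kind from less RNA per cell. A gene was called when its adjusted p was under 0.05 in limma (Benjamini-Hochberg over all genes tested), and differences are on the log2(normalized count + 1) scale, with standard error (SE).

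**Figure D1:**
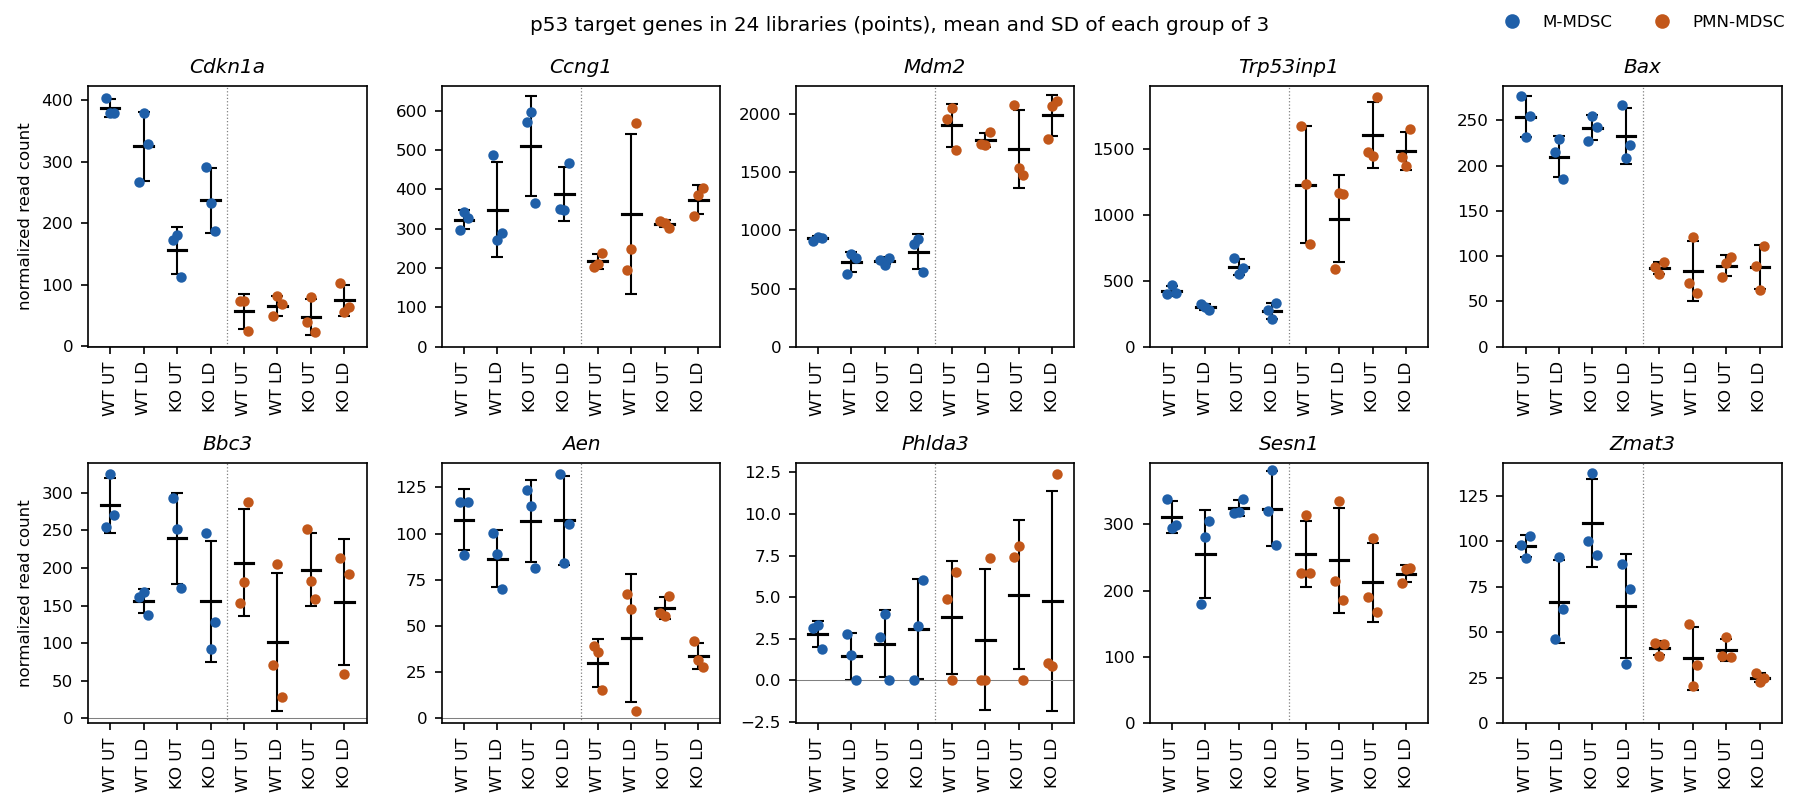
Normalized read counts (linear axes, 1 per gene) of the 10 p53 target genes in the 8 groups, with M-MDSCs to the left and PMN-MDSCs to the right of the dotted line. Points are libraries, bars are the mean and SD of 3. Cdkn1a and Bax lie higher in all 12 M-MDSC libraries than in any PMN-MDSC library, Mdm2 lies higher in all 12 PMN-MDSC libraries, and Phlda3 stays at or below 12.4.

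Cell type was the axis along which these genes differed most. Cdkn1a and Bax were called higher in M-MDSCs, and Mdm2 and Trp53inp1 higher in PMN-MDSCs, in all 4 pairs of matched groups. Phlda3, a small lipid-binding protein that restrains Akt, had 0 to 12 reads in any library, did not pass the minimum of 10 normalized counts in 3 libraries, and was left out of every test. Of the other 9 genes, 6 were called between cell types in untreated WT mice (50.5% of 13457 genes tested were called), 5 in lymphodepleted WT mice (39.3%), 6 in untreated KO mice (43.8%) and 6 in lymphodepleted KO mice (47.4%). In the same order, 4, 3, 4 and 4 of the 9 were higher in M-MDSCs, where 22.2%, 19.4%, 20.3% and 23.8% of all genes were, and 2 in each were lower, where 28.3%, 19.9%, 23.6% and 23.6% were. Libraries of the matched groups did not overlap for 7, 5, 8 and 7 of the 9, against 66.4%, 42.6%, 57% and 56.1% of all genes. Cell type differences were thus common among all genes, not only these. Scaling by total count, chosen after seeing the data, moved the split of all calls from 2994 higher and 3807 lower to 5359 and 2084 in untreated WT mice, and likewise toward M-MDSCs in the other 3 pairs (4559 and 1556, 5334 and 1775, 4595 and 2121). Per kilobase of exon, Mdm2 was the most abundant of the 10 in both cell types, with a mean of 158 normalized counts per kilobase in M-MDSCs and 362 in PMN-MDSCs. After it came Bax (149) in M-MDSCs and Trp53inp1 (204) in PMN-MDSCs, and Phlda3 was the lowest in both (1.53 and 2.59).

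Cdkn1a encodes p21, the inhibitor of cyclin-dependent kinases that carries out most of the p53 cell cycle arrest. It lies on chromosome 17 (29090976 to 29100727, plus strand, GRCm38) and overlaps an antisense transcript, AC167363.2, and whether the counting used strand is not given in the sources used here. The 3 untreated WT M-MDSC libraries had 404, 379 and 378 normalized counts, and the 3 untreated WT PMN-MDSC libraries had 73.4, 73.2 and 23.9. Every M-MDSC library of the study (112 to 404, median 279) was above every PMN-MDSC library (22.8 to 103, median 66.0). The difference, M-MDSC minus PMN-MDSC, was 2.91 ± 0.41 (SE, adjusted p 4.14e-06, limma) in untreated WT mice. It was 2.31 ± 0.41 (adjusted p 0.000104) in lymphodepleted WT mice. Under the KO label it was 1.84 ± 0.41 untreated (adjusted p 0.000949) and 1.69 ± 0.41 lymphodepleted (adjusted p 0.00173).

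Bax, the pore-forming protein that permeabilizes mitochondria in apoptosis, ran the same way with less spread. It lies on chromosome 7 (45461697 to 45466898, minus strand), where the annotated gene Gm45808 overlaps it on the same strand. M-MDSC libraries held 185 to 276 normalized counts (median 230.2) and PMN-MDSC libraries 59.7 to 121 (median 88.4), with no overlap between the 12 and the 12. The 4 differences, between 1.37 and 1.53, were close to each other, each with an SE of 0.26 and the largest adjusted p at 0.000178 (limma). Bbc3, which encodes Puma, the BH3-only protein that lets Bax act, was not called by limma in any pair. Its differences ran from 0.09 ± 0.51 in lymphodepleted KO mice to 1.05 ± 0.51 in lymphodepleted WT mice, with a smallest adjusted p of 0.111. It was called higher in both WT pairs under total-count scaling (1.19 and 1.54), and in lymphodepleted WT mice without replicate 2 of the PMN-MDSCs (1.77, adjusted p 0.00543, limma).

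Mdm2, the ligase that removes p53, was the reverse of Cdkn1a and Bax. It lies on chromosome 10 (117688875 to 117710758, minus strand). M-MDSC libraries held 626 to 945 normalized counts (median 777) and PMN-MDSC libraries 1478 to 2109 (median 1815), with no overlap. M-MDSC minus PMN-MDSC was −1.03 ± 0.16 in untreated WT, −1.29 ± 0.16 in lymphodepleted WT, −1.18 ± 0.16 in untreated KO and −1.30 ± 0.16 in lymphodepleted KO mice (SE, n = 3 each). All 4 were called, with adjusted p no larger than 9.32e-06 in limma. With libraries scaled to their total count in place of the size factors, the first fell to −0.33 (adjusted p 0.0590). That scaling moved the median of all genes upward by 0.45 to 0.72 in these comparisons, so Mdm2 then lay below the median of all genes by more than its own value.

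Trp53inp1 encodes a stress protein that helps p53 act on apoptosis genes and takes part in autophagy. It lies on chromosome 4 (11156431 to 11174379, plus strand). Its PMN-MDSC libraries held 587 to 1889 normalized counts (median 1399) and its M-MDSC libraries 209.8 to 669.9 (median 363), so a few libraries of the 2 cell types overlapped across groups but none within matched groups. The difference was −1.47 ± 0.25 in untreated WT, −1.62 ± 0.25 in lymphodepleted WT, −1.40 ± 0.25 in untreated KO and −2.46 ± 0.25 in lymphodepleted KO mice. The largest of the 4 adjusted p was 7.76e-05 (limma).

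The other 4 genes tested were called in some pairs or none. Aen, a nuclease that helps break down DNA in apoptosis, held 69.8 to 132 normalized counts in M-MDSCs and 3.67 to 67.4 in PMN-MDSCs. It was called higher in M-MDSCs in 3 of 4 pairs (1.90 ± 0.64, 1.69 ± 0.64 and 1.64 ± 0.64), and in untreated KO mice the difference was 0.81 ± 0.64 (adjusted p 0.310, limma). The untreated WT call was lost in 2 of 15 alternative analyses, the lymphodepleted WT call in 9, and the lymphodepleted KO call in 8, among them the removal of any 1 of its 6 libraries. Replicate 3 of the lymphodepleted WT PMN-MDSCs held 3.67 against 67.4 and 59.4 in the rest of its group, and without it the difference was 0.43 (adjusted p 0.399, limma). Zmat3, an RNA-binding zinc finger protein of the p53 programme, was called higher in M-MDSCs in 3 pairs (1.21 ± 0.41, 1.41 ± 0.41 and 1.22 ± 0.41), and was 0.94 ± 0.41 in lymphodepleted WT mice (adjusted p 0.0719, limma). That pair was called by edgeR (adjusted p 0.0489), by DESeq2 (adjusted p 0.0327) and in limma without replicate 1 of the PMN-MDSCs (1.29), while the untreated WT and lymphodepleted KO calls were each lost in 3 of 15 alternatives. Sesn1, a sestrin that restrains mTORC1 under stress, was called in untreated KO mice (0.65 ± 0.24, adjusted p 0.0340, limma) and not in the other 3 pairs (0.06 to 0.51). The call was lost in 6 of 15 alternatives, 5 of them removals of 1 library, with adjusted p up to 0.141. Ccng1, an atypical cyclin that brings a phosphatase to Mdm2, was not called by limma in any pair (0.05 to 0.67, smallest adjusted p 0.0600). In untreated KO mice it was called higher in M-MDSCs by edgeR (0.83, adjusted p 0.0292) and DESeq2 (0.71, adjusted p 0.0467), and in 4 other alternatives. In lymphodepleted WT mice it was called without replicate 3 of the PMN-MDSCs (0.61, adjusted p 0.0454, limma).

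**Figure D2:**
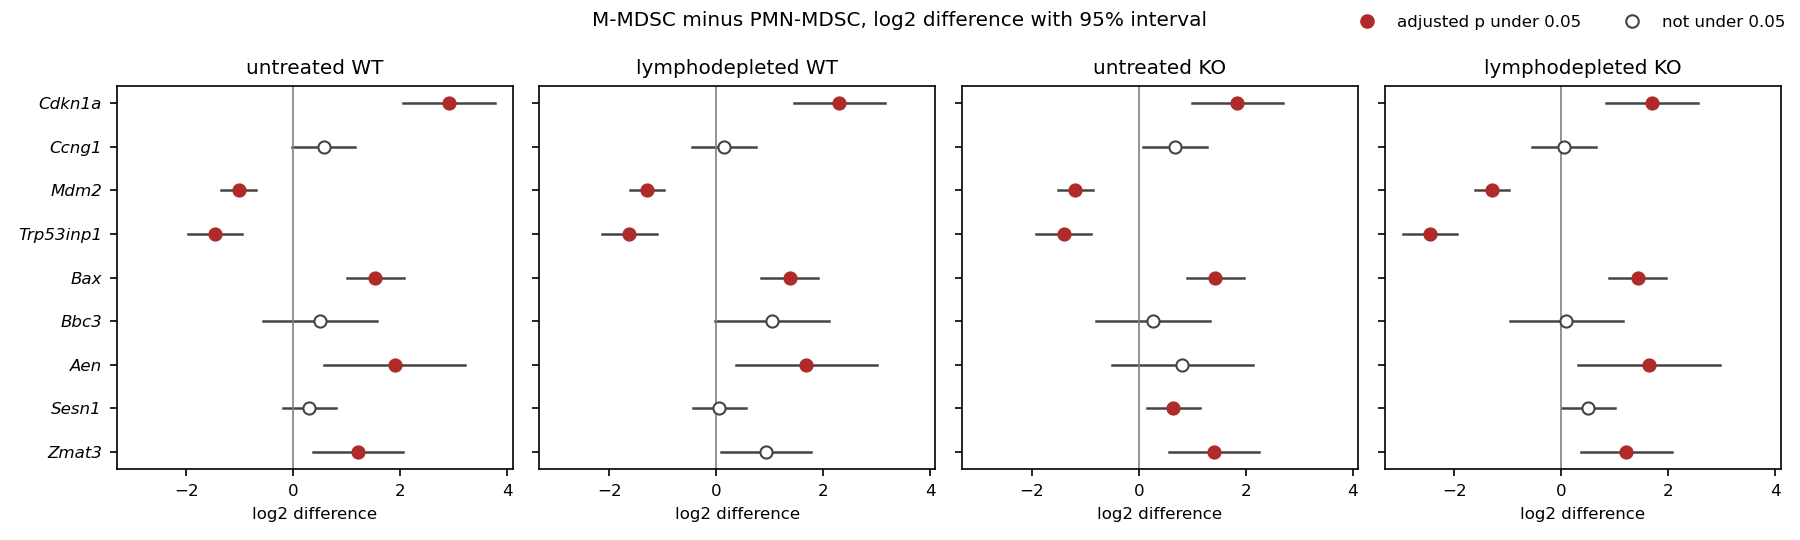
Differences between cell types for the 9 genes tested, as M-MDSC minus PMN-MDSC on the log2(normalized count + 1) scale with 95% intervals, in the 4 pairs of matched groups of 3 libraries. Filled points have an adjusted p under 0.05. Cdkn1a and Bax lie to the right and Mdm2 and Trp53inp1 to the left of 0 in all 4 panels.

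Some pairs of these genes ran together or apart over the 24 libraries. Pearson correlations of log2 values were 0.84 between Cdkn1a and Bax, 0.84 between Mdm2 and Trp53inp1, and −0.91 between Mdm2 and Bax. Ccng1 had 0.27 with Cdkn1a and −0.17 with Trp53inp1, and Bbc3 0.25 and −0.09. These describe libraries that share cell type, depth and scaling. Within a cell type the closest pairs above did not keep their values. Over the 12 M-MDSC and the 12 PMN-MDSC libraries Cdkn1a and Bax had 0.06 and 0.00, Mdm2 and Trp53inp1 −0.15 and 0.11, and Mdm2 and Bax 0.34 and −0.30. Bax and Bbc3, at 0.50 over all 24, had 0.65 and 0.76. They were not alone in this. Bbc3 and Aen, at 0.56 over all 24, had 0.58 and 0.52, and Bax and Aen, at 0.77, had 0.74 and 0.43. Among 7127 genes with a mean of at least 100 normalized counts, those most like Mdm2 over the 24 libraries were Gcc1 (0.98), Rab3gap2 (0.98) and Rnf111 (0.98). Most like Cdkn1a were Dennd4c (0.94), Psma7 (0.94) and Wdr11 (0.93). Ccng1 had Smim15 (0.84), Uba1 (0.83) and Prpf8 (0.82).

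The upstream part of the pathway was measured in the same libraries. Trp53, which encodes p53, was called higher in M-MDSCs in all 4 pairs, by 1.28 to 2.05, with a mean of 223 ± 28.5 normalized counts (SD, n = 3) in untreated WT M-MDSCs and 87.3 ± 4.0 in PMN-MDSCs. Mdm4, the Mdm2 partner that blocks p53 activity, was called lower in M-MDSCs in all 4 (−1.07 to −1.26), the direction of Mdm2. Cdkn2a, whose ARF product inhibits Mdm2, held at most 13.1 normalized counts in any library and was not tested. Of 15 tested regulators, in the order of pairs above, 5, 4, 3 and 5 were called higher and 8, 8, 6 and 7 lower in M-MDSCs. Of all genes tested, 22.2%, 19.4%, 20.3% and 23.8% were called higher and 28.3%, 19.9%, 23.6% and 23.6% lower.

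Other p53 targets, listed by function (33 genes, 31 tested between cell types), also ran in both directions. In the same order, 6, 4, 4 and 7 were called higher in M-MDSCs and 12, 9, 13 and 12 lower, beside the shares of all genes just given. The list filed under cell cycle arrest, which also holds the cyclin Ccnd1 and the mitotic genes Gtse1 and Psrc1, lay mostly on the PMN-MDSC side. In every pair 5 of its 8 genes were called lower in M-MDSCs, the opposite of Cdkn1a, where 19.9% to 28.3% of all genes were. Gadd45a, which inhibits the Cdk1 kinase after DNA damage, had 68.1 ± 10.3 normalized counts in untreated WT M-MDSCs and 2439 ± 362 in PMN-MDSCs (SD, n = 3 each), a difference of −5.14 ± 0.25. Plk3, a stress-induced kinase, differed by −4.96 ± 0.37. Of the death genes, Fas, the death receptor, was called lower in M-MDSCs in all 4 pairs (−2.04 to −2.31), and Pmaip1, which encodes the BH3-only protein Noxa, in 3 of 4 (the untreated WT call was lost in 7 of 15 alternatives). The median over the other targets was −0.64, −0.55, −0.49 and −0.51, against −0.08, 0.07, 0.05 and 0.05 over all genes tested. For the 9 described genes it was 0.57, 0.94, 0.67 and 0.51.

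At 7 days after lymphodepletion, the 9 genes did not rise as a set in either cell type. None was called higher in any of the 4 comparisons of lymphodepleted with untreated mice, and Trp53inp1 was called lower in M-MDSCs. In WT M-MDSCs 1 of 9 was called (18.3% of 11570 genes tested were called, 9.52% higher and 8.82% lower). In KO M-MDSCs it was also 1 of 9 (11.6% called, 6.11% higher and 5.52% lower). In WT PMN-MDSCs it was 0 of 9 (10.9% of 12971 genes called, 4.14% higher and 6.73% lower) and in KO PMN-MDSCs 0 of 9 (0.224%). At an unadjusted p under 0.05 the WT M-MDSC count was 3 (Bbc3, Mdm2 and Trp53inp1, all lower). In KO M-MDSCs it was 4 (Bbc3, Trp53inp1 and Zmat3 lower, Cdkn1a higher). The PMN-MDSC counts were 1 (Bbc3, lower) and 0, and both edgeR and DESeq2 called 0 there. The share of all genes at that p is not given here, so these counts are not set against it. The median of the 9 differences was −0.32 in WT M-MDSCs, −0.06 in KO M-MDSCs, −0.11 in WT PMN-MDSCs and −0.06 in KO PMN-MDSCs. Over all genes tested it was −0.07, −0.02, −0.20 and −0.07.

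The width of the intervals says how large a rise the data allow. In WT M-MDSCs the 95% interval of all 9 genes ended below 1, a doubling. In KO M-MDSCs that held for 8, all but Cdkn1a. In WT PMN-MDSCs it held for 6 (not Cdkn1a, Ccng1 or Aen) and in KO PMN-MDSCs for 8 (not Cdkn1a). Intervals were wider in PMN-MDSCs, where Aen in WT mice spanned −1.89 to 1.67.

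**Figure D3:**
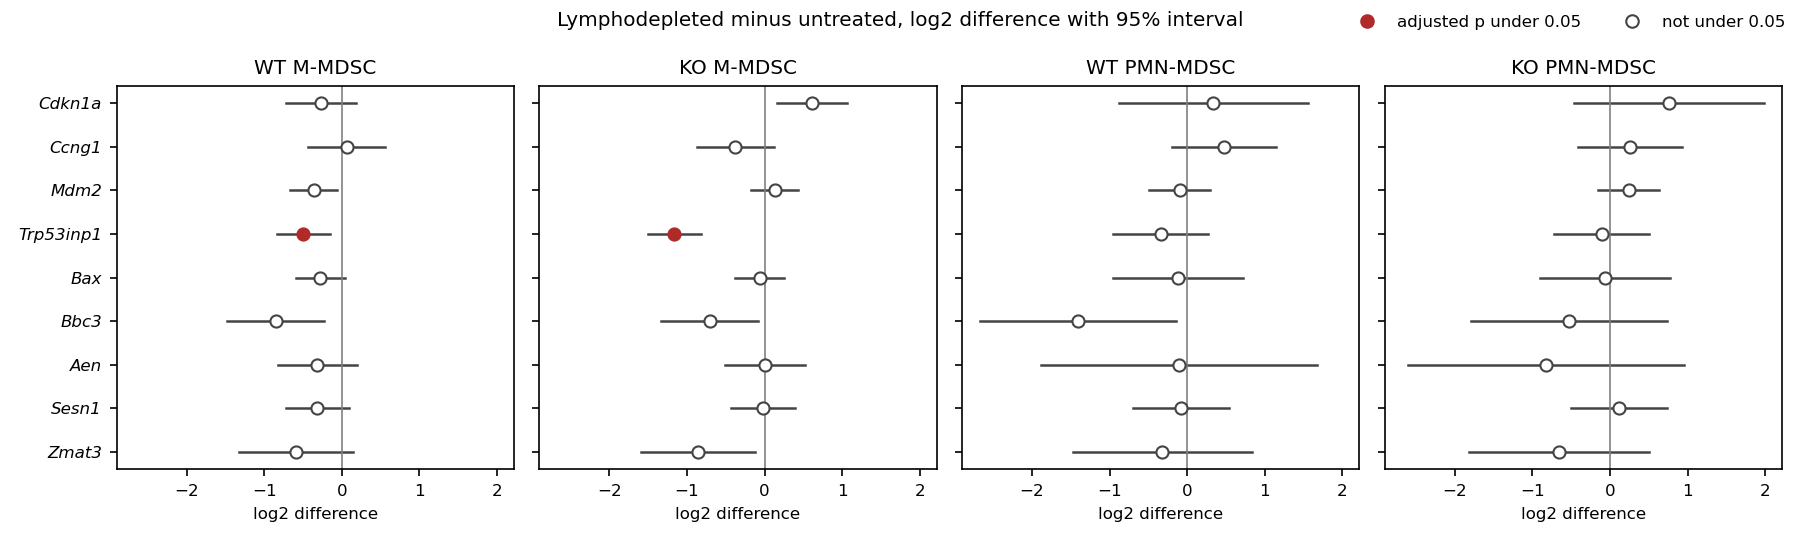
Lymphodepleted minus untreated differences of the 9 genes tested, on the log2(normalized count + 1) scale with 95% intervals, in each cell type and genotype label (3 libraries against 3). The filled points, with an adjusted p under 0.05, are Trp53inp1 in WT and KO M-MDSCs, both below 0, and Bbc3 lies below 0 in all 4 panels without passing the test.

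Trp53inp1 fell in KO M-MDSCs, from 669.9, 549 and 592 normalized counts untreated to 277, 209.8 and 330.1 lymphodepleted. The groups did not overlap, and the difference was −1.16 ± 0.16 (SE, adjusted p 0.000790, limma). It was called in all 15 alternative analyses (−0.99 to −1.31). In WT M-MDSCs the values were 396, 465 and 409.5 untreated and 322, 299 and 278 lymphodepleted, again without overlap. There the difference of −0.50 ± 0.16 had an adjusted p of 0.0452 in limma. The call was lost in 13 of 15 alternatives, among them edgeR, DESeq2 and the removal of any 1 of the 6 libraries. In those 13 the adjusted p ran from 0.0517 (DESeq2) to 0.326 (limma, all 24 libraries in 1 fit). In PMN-MDSCs, where the gene was more abundant, the differences were −0.34 ± 0.29 (WT) and −0.11 ± 0.29 (KO), and neither was called.

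Neither Cdkn1a nor Ccng1 was called by limma after lymphodepletion. Cdkn1a was 404, 379 and 378 normalized counts in untreated and 267, 379 and 328 in lymphodepleted WT M-MDSCs, and these overlapped (−0.27 ± 0.21, adjusted p 0.404, limma). In KO M-MDSCs it was 173, 181 and 112 untreated against 292, 233 and 186 lymphodepleted. The KO groups did not overlap, but the difference of 0.61 ± 0.21 had an adjusted p of 0.0750 in limma. DESeq2 called it (adjusted p 0.0396), and so did limma without replicate 3 of the lymphodepleted KO group (0.77, adjusted p 0.0372). In PMN-MDSCs Cdkn1a differed by 0.34 ± 0.58 (WT) and 0.76 ± 0.58 (KO). Ccng1 differed by 0.06 ± 0.23 and −0.38 ± 0.23 in WT and KO M-MDSCs and by 0.48 ± 0.32 and 0.25 ± 0.32 in PMN-MDSCs. Its lymphodepleted WT PMN-MDSC libraries were uneven, at 196, 248 and 569 normalized counts, the highest being replicate 3.

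Of the death genes, Bbc3 had a mean below that of untreated mice in all 4 comparisons, and limma called none. In WT M-MDSCs it was 255, 325 and 271 normalized counts untreated and 161, 169 and 138 lymphodepleted, without overlap, a difference of −0.86 ± 0.29 (adjusted p 0.0562, limma). DESeq2 called this one (adjusted p 0.0353). In KO M-MDSCs it was 293, 252 and 174 against 246, 92.4 and 129, which overlapped (−0.71 ± 0.29, adjusted p 0.138, limma). Without replicate 1 of the lymphodepleted group that difference was −1.10 and was called. In WT PMN-MDSCs it was 153, 181 and 287 against 70.6, 205 and 28.5 (−1.41 ± 0.60, adjusted p 0.131, limma). It was called there with all 24 libraries in 1 fit (adjusted p 0.0469) and without replicate 2 of the lymphodepleted group (−2.13, adjusted p 0.0258). In KO PMN-MDSCs the difference was −0.53 ± 0.60. Bax differed by −0.28 ± 0.15, −0.06 ± 0.15, −0.12 ± 0.39 and −0.06 ± 0.39 in WT M, KO M, WT PMN and KO PMN, and Aen by −0.31, 0.00, −0.11 and −0.82, with none called.

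Mdm2, whose induction is the textbook feedback of active p53, was 909, 945 and 935 normalized counts in untreated and 626, 794 and 759 in lymphodepleted WT M-MDSCs. These did not overlap, and the difference was −0.36 ± 0.14 (adjusted p 0.0903, limma). In the other 3 comparisons it was 0.13 ± 0.14 (KO M), −0.10 ± 0.18 (WT PMN) and 0.24 ± 0.18 (KO PMN). Sesn1 differed by −0.32 ± 0.19, −0.02 ± 0.19, −0.08 ± 0.29 and 0.12 ± 0.29 in WT M, KO M, WT PMN and KO PMN. Zmat3 lay below the untreated mean in all 4 (−0.59 ± 0.34, −0.86 ± 0.34, −0.32 ± 0.55 and −0.66 ± 0.55), and none was called. Groups without overlap numbered 4 of 9 genes in WT M-MDSCs (38.8% of all genes tested), 3 in KO M-MDSCs (27.3%), 0 in WT PMN-MDSCs (32.9%) and 3 in KO PMN-MDSCs (15.8%).

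Genes of dividing cells, of progenitors and of other cell types differed over the same comparison, and their part in the values above was not tested. The summed level of 10 genes of dividing cells went from 720 to 789 normalized counts in untreated WT M-MDSCs to 14506 to 24182 after lymphodepletion, and all 10 were called higher. In KO M-MDSCs the sum was 713 to 7320 untreated and 10559 to 24036 lymphodepleted, again with 10 of 10 called. Granulocyte-monocyte progenitor genes were called higher in 8 of 8 (WT M) and 2 of 8 (KO M). The PMN-MDSC marker sum in WT M-MDSC libraries was 3241 to 3518 untreated and 5979 to 21854 lymphodepleted. B cell genes were called lower in 7 of 8 and NK cell genes in 8 of 8 in WT M-MDSCs, and both in 8 of 8 in KO M-MDSCs. In PMN-MDSCs B cell genes were called lower in 8 of 8 (WT) and 4 of 8 (KO), and dividing-cell genes higher in 8 of 10 (WT) and 0 of 10 (KO). Hbb-bt and Hba-a1 of the erythroid list were at 0 in all libraries, and Cd3e of the T cell list in lymphodepleted WT PMN-MDSCs.

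A list of 18 cell cycle genes that p21 is known to hold down through the DREAM complex was called higher in 18 of 18 in WT M-MDSCs (median 4.51) and in KO M-MDSCs (median 2.86). It was called higher in 14 and lower in 1 in WT PMN-MDSCs (median 2.94, 17 above 0). In KO PMN-MDSCs it was called in 0 of 18 (median 1.29, all 18 above 0). All 10 genes of dividing cells are in this list, so the counts are not separate. Prc1, a spindle midzone protein, went from 36.0 to 829 mean normalized counts in WT M-MDSCs (4.52 ± 0.50, adjusted p 0.000122, limma). Plk1, the mitotic kinase, rose by 4.69 ± 0.52 and Top2a, the topoisomerase of replicated chromosomes, by 4.74 ± 0.55. In KO M-MDSCs Kif23, a kinesin of cell division, rose by 2.27 ± 0.38, Prc1 by 2.85 ± 0.50 and Cdk1, the mitotic cyclin-dependent kinase, by 3.21 ± 0.57. In WT PMN-MDSCs Ccnb2, a mitotic cyclin, rose by 3.39 ± 0.54, Plk1 by 3.07 ± 0.52, Prc1 by 2.97 ± 0.53 and Top2a by 3.18 ± 0.56.

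Among the 28 other p53 targets tested in M-MDSCs, 4 were called higher and 2 lower in each genotype label. Of all genes tested, 9.52% were called higher and 8.82% lower in WT mice, and 6.11% and 5.52% in KO mice. Polh, a polymerase that copies past damaged bases, rose from 37.9 to 179 mean normalized counts in WT (2.21 ± 0.23, adjusted p 9.5e-05, limma) and by 1.27 ± 0.23 in KO mice. Psrc1 and Gtse1, both genes of the mitotic spindle or its checkpoint, rose in WT (3.25 and 3.87) and in KO mice (2.28 and 2.42). The fourth was Rps27l in WT (0.88) and Lrdd, the symbol used in the table for Pidd1, in KO mice (1.45). Those called lower were Trp53i11 (−1.67 in WT, −2.52 in KO), Ercc5 in WT (−0.72) and Rrm2b in KO mice (−0.91). These names, except Polh in WT mice, were taken after their values were seen. Of the regulators, Chek2, a damage kinase, rose by 1.66 ± 0.29 in KO M-MDSCs. Its mean was also higher after lymphodepletion elsewhere, going from 58.4 to 148 normalized counts in WT M-MDSCs. In PMN-MDSCs the Chek2 mean went from 21.8 to 84.1 (WT) and from 31.4 to 66.8 (KO). Trp53 differed by 0.00 ± 0.15 and −0.07 ± 0.15 in WT and KO M-MDSCs and was not called.

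In WT PMN-MDSCs 4.14% of all genes tested were called higher and 6.73% lower. Of the 31 other targets 6 were called, all lower: Plk2 (−1.74), Plk3 (−1.41), Sesn2 (−1.29), Xpc (−1.28), Btg2 (−1.15) and Bid (−0.80), named after their values were seen. They are stress kinases, a sestrin, a damage sensor of nucleotide excision repair, an antiproliferative protein and a BH3-only protein. The median of all genes in that comparison was itself −0.20, and scaling by total count moved it to 0.09 and the split of all calls from 537 higher and 873 lower to 616 and 272. In KO PMN-MDSCs 0 of 31 were called (0.224% of all genes). Trp53 differed by 0.03 ± 0.38 in WT and −0.84 ± 0.38 in KO PMN-MDSCs (adjusted p 0.969 and 0.467, limma).

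**Figure D4:**
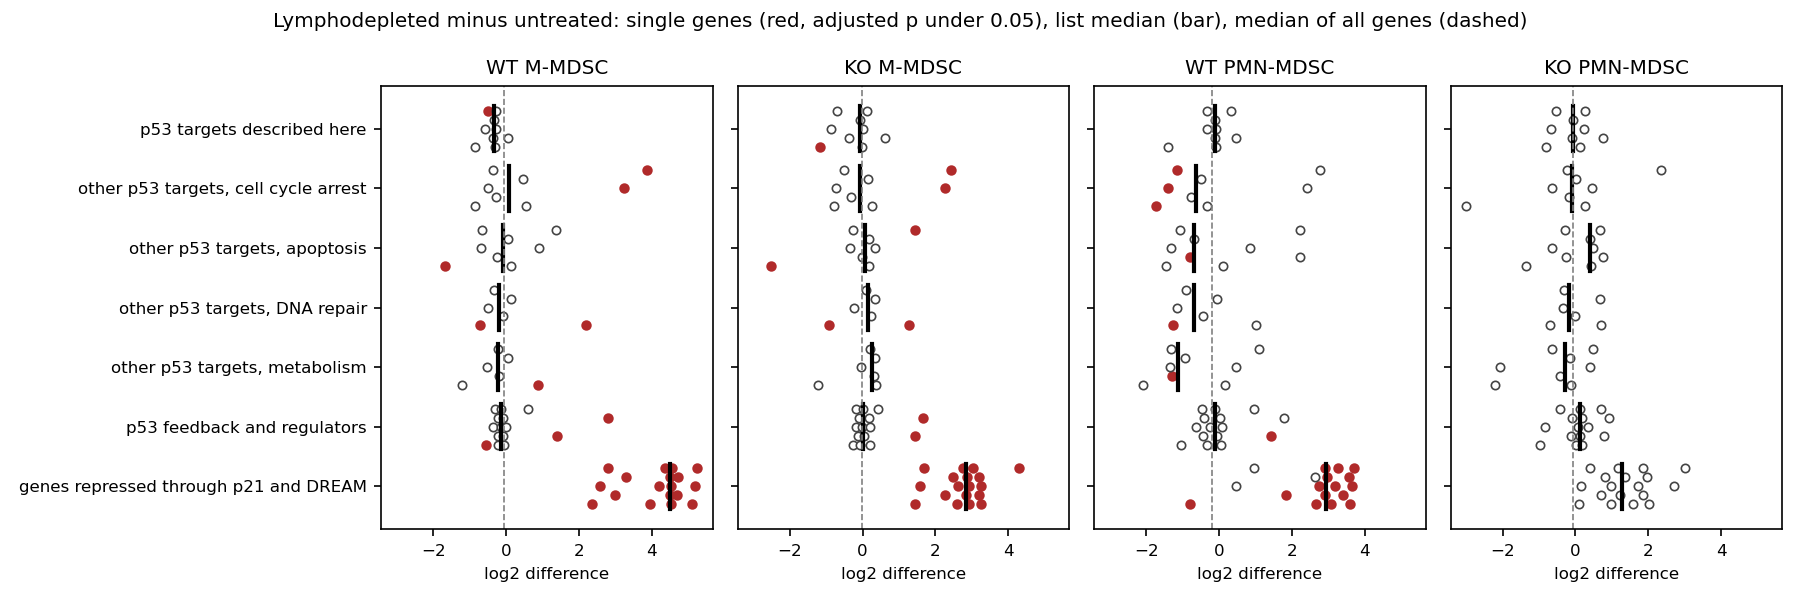
Lymphodepleted minus untreated differences (log2(normalized count + 1) scale) of single genes in the 9 p53 targets tested, 4 functional lists of other p53 targets, regulators of p53 and cell cycle genes of the DREAM list. Red points have an adjusted p under 0.05, vertical bars are list medians and the dashed line is the median of all genes tested. The p53 target lists straddle 0, and the DREAM list lies at medians of 4.51, 2.86, 2.94 and 1.29.

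Between genotype labels, Cdkn1a in untreated M-MDSCs was the only called gene of the 9. Its values were 404, 379 and 378 normalized counts (387 ± 14.4, SD) in WT-labelled mice and 173, 181 and 112 (155 ± 37.7) in KO-labelled mice. The groups did not overlap, and KO minus WT was −1.34 ± 0.21 (SE, adjusted p 0.00622, limma). In this comparison 4.03% of 11570 genes were called, 2.24% higher and 1.79% lower. The call held in 14 of 15 alternatives and was lost with all 24 libraries in 1 fit (adjusted p 0.216). After lymphodepletion the same difference in M-MDSCs was −0.46 ± 0.21, with an interval of −0.91 to −0.01 and an adjusted p of 0.516 (limma). In PMN-MDSCs it was −0.28 ± 0.58 untreated and 0.15 ± 0.58 lymphodepleted.

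Other genes parted the untreated M-MDSC groups without passing the test. Trp53inp1 was 396, 465 and 409.5 in WT and 669.9, 549 and 592 in KO libraries (0.51 ± 0.16, adjusted p 0.0876, limma), and DESeq2 called it (adjusted p 0.0265). Ccng1 was 296, 343 and 328 in WT and 569.9, 597 and 365 in KO libraries (0.63 ± 0.23, adjusted p 0.135, limma). Mdm2 was 909 to 945 in WT and 705 to 761 in KO libraries (−0.33 ± 0.14, adjusted p 0.188, limma). With Cdkn1a, 4 of 9 genes did not overlap, against 33.9% of all genes tested. Of other p53 targets, Ccnd1, the cyclin of G1 phase, and Trp53i11 were called higher in KO mice (2.06 ± 0.46 and 2.04 ± 0.45), and these calls were lost in 6 and 7 of 15 alternatives.

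Other markers differed between these 2 untreated groups as well, and their part in the Cdkn1a difference was not tested. NK cell genes were called higher in KO M-MDSCs in 8 of 8, with sums of 6684 to 9499 normalized counts against 1698 to 2012, T cell genes in 5 of 8 and progenitor genes in 4 of 8. B cell genes summed to 918 to 1486 in KO and 492 to 581 in WT libraries, without overlap, and 0 of 8 were called. The sum of dividing-cell genes was 713 to 7320 in the 3 KO libraries and 720 to 789 in the WT libraries, with 0 of 10 called. Without replicate 3 of the KO group, the library with the lowest Cdkn1a (112), the call held. No member was called between labels in lymphodepleted M-MDSCs (0.207% of all genes called, 0.156% higher and 0.0519% lower), untreated PMN-MDSCs (0.00771%) or lymphodepleted PMN-MDSCs (0.0154%). At an unadjusted p under 0.05, for which no share of all genes is given, these counts were 1 (Cdkn1a), 0 and 1 (Trp53inp1). Both edgeR and DESeq2 called 0 in each. Groups without overlap numbered 0, 2 (Aen and Ccng1) and 1 (Trp53inp1) of the 9, against 11.3%, 13.1% and 10.2% of all genes. Trp53inp1 in lymphodepleted PMN-MDSCs was 587, 1161 and 1155 in WT and 1432, 1367 and 1645 in KO libraries (0.68 ± 0.29, adjusted p 0.567, limma).

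Whether the response to lymphodepletion differed between labels or cell types was tested directly, and none of the 9 genes was called. All genes called were 0.00864% for the labels in M-MDSCs, 0% in PMN-MDSCs, and 0.788% and 0.0966% for the cell types in WT and KO mice. Counts at an unadjusted p under 0.05 follow without the share of all genes at that p, and are not read as a result. In M-MDSCs there were 3 such genes, Cdkn1a (0.88 ± 0.30, adjusted p 0.334), Trp53inp1 (−0.67 ± 0.23, adjusted p 0.337) and Mdm2 (0.49 ± 0.20, adjusted p 0.381, all limma). Between cell types, Trp53inp1 in KO mice was the 1 such gene (−1.06 ± 0.35, adjusted p 0.366, limma). Of the DREAM list, Kif23 responded in opposite directions in the cell types of WT mice, from a mean of 203 to 1231 normalized counts in M-MDSCs and from 3558 to 2065 in PMN-MDSCs (difference 3.40 ± 0.46, adjusted p 0.000382, limma). In the other 2 tests the count of the 9 at that p was 0, and edgeR and DESeq2 called 0 in all 4. The larger Trp53inp1 fall in KO than in WT M-MDSCs is therefore not shown to differ between the labels, and neither is its absence of a call in PMN-MDSCs.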

How the data were processed

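The signal values the authors deposited are normalized read counts for 23479 genes in 24 libraries. The submitters' processing notes name the tools HTSeq 0.6.1, STAR 2.5.3a and DESeq2, and the build mm10. The DESeq2 version, annotation and strandedness were not given in the sources used here. Dividing each library's values by what 1 read is worth gave whole numbers for 100% of them (tolerance 0.001), and these reads served for count tests and depths.

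limma 3.58.1 (R 4.3.3) with a variance trend was fitted to log2(normalized count + 1), on the 12 libraries of a cell type, or on all 24 between cell types, with 1 mean per group. Genes needed 10 normalized counts in 3 fitted libraries. Tests were two-sided, in 16 comparisons, with Benjamini-Hochberg adjustment over all genes. The limma fit was checked on simulated data only for lymphodepletion in WT M-MDSCs and in WT PMN-MDSCs. The comparisons of cell types and labels and the tests of a difference in response were not simulated. The scale understates folds of low genes. The design text gives 3 mice for most groups, and whether cell types share mice is not stated.

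The 10 genes and the lists were chosen with earlier results of these data known. All 10 are named, with Trp53, Mdm4, Cdkn2a, Pmaip1, Fas, Gadd45a and Il6, and from the lists up to 4 called genes of smallest adjusted p per lymphodepletion comparison and up to 2 elsewhere. The 3 most alike genes are by Pearson correlation. Gene positions are from GENCODE vM21 (GRCm38).

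The settings varied were the pseudocount (0.5, 5), the filter (none), the normalization (quantile), a replicate block, edgeR 4.0.16 and DESeq2 1.42.0 on recovered reads, another set of libraries in the fit, leaving out each library, and, added after seeing the data, scaling by total count.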

Additional observations from a re-analysis of the deposited data

How the results depend on the processing

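Called directions did not reverse in any alternative run for the 9 genes tested. Among lymphodepletion comparisons, the count of 1 called gene in WT M-MDSCs became 0 with no filter, quantile normalization, the replicate block, edgeR, total-count scaling and all 24 libraries in 1 fit, and was 0 to 0 leaving out each library. DESeq2 left it at 1, with Bbc3 in place of Trp53inp1. In KO M-MDSCs the count of 1 was 2 with DESeq2 and 1 to 2 leaving out a library, and in WT PMN-MDSCs the count of 0 was 1 with all 24 libraries and 0 to 1 leaving out a library. For KO minus WT in untreated M-MDSCs it was 2 with DESeq2 and 0 with all 24 libraries. Between cell types, leaving out a library gave 5 to 6, 4 to 6, 5 to 6 and 4 to 5 genes in the order of the report. With all 24 libraries in 1 fit the genes called in all were 815 in place of 2122 (WT M), 509 in place of 1346 (KO M), 3491 in place of 1410 (WT PMN), 325 in place of 29 (KO PMN) and 36 in place of 466 (KO minus WT, untreated M). DESeq2 called 246 and 1071 in the last 2, where total-count scaling called 15 (KO PMN), and no filter 249 and the replicate block 269 (untreated M). In WT PMN-MDSCs quantile normalization called 825 and total-count scaling 888. For KO minus WT in lymphodepleted M-MDSCs 24 became 185 (DESeq2), 8 (block) and 1 (all 24 libraries), and in lymphodepleted PMN-MDSCs 2 became 111 (all 24 libraries), 46 (DESeq2) and 5 (pseudocount 5). In untreated PMN-MDSCs 1 became 0 to 10. Of the tests of a difference in response, the labels gave 0 to 71 in M-MDSCs (1 as reported) and 0 to 31 in PMN-MDSCs (0), and the cell types 61 to 361 in WT (106) and 1 to 99 in KO mice (13), with DESeq2 the highest except in PMN-MDSCs (all 24 libraries). Total-count scaling turned 259 higher and 207 lower calls for KO minus WT in untreated M-MDSCs into 308 and 94, and 707 and 639 for lymphodepletion in KO M-MDSCs into 531 and 763. Between cell types it added Ccng1, Sesn1, Bbc3 or Zmat3 as higher. In no comparison did every same-numbered pair of libraries correlate above 0.1, the limit set for pairing. Between cell types, all 3 correlated best with their own number in untreated WT and lymphodepleted KO mice. In lymphodepleted WT mice 2 of 3 did, and in untreated KO mice 0. Whether same-numbered libraries share mice is therefore not known. The block changed no other count of the 9 genes. Phlda3, at most 12 reads a library, was too shallow to test, and 3 libraries a group limit every test.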
